A study of Mus musculus with 7 samples.

Results

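Small nucleolar RNAs and small Cajal body RNAs were followed as one group of guide RNAs in splenic germinal centre B cells. The members are the genes whose symbol in the platform annotation starts with Snord, Snora or Scarna and whose probe set carries no other symbol. Of 21515 genes with such a probe set, 68 were members: 42 C/D RNAs (Snord), 21 H/ACA RNAs (Snora) and 5 small Cajal body RNAs (Scarna, scaRNAs). Host genes named Snhg were not members. The series compared 3 arrays of RRas2-deficient mice with 4 arrays of wild-type (WT) mice. All mice had received sheep red blood cells 7 days earlier, and B cells positive for B220, CD95 and GL7 were sorted from spleen. The labels write the deficient genotype as RRas2-deficient in titles and as Rras-deficient in descriptions. They give no age, strain, allele or tissue limit of the deficiency, and they name the arrays biological replicates without naming animals.

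Guide RNAs direct chemical marks to other RNAs. C/D RNAs pair with ribosomal RNA and place methyl groups on riboses through the methylase fibrillarin, whereas H/ACA RNAs turn uridine into pseudouridine through dyskerin. ScaRNAs do the same for spliceosomal RNAs in Cajal bodies. In mammals most of them are cut from introns of other genes, often genes of ribosomal proteins or of ribosome assembly, and are protected by a shell of core proteins, so their level follows both the transcription of the host and the fate of the excised intron. In germinal centre B cells, which grow and divide fast, they belong to the machinery that makes ribosomes.

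Each value is a log2 intensity of a probe set, and a difference of 1 is a doubling of signal. Intensities of different probe sets are not levels that can be set against each other, so only differences between arrays are read. Of the 68 members, 65 had a mean above the limit for dim genes (3.48 on the log2 scale, the 25th percentile of all genes) and were tested, 40 C/D, 20 H/ACA and 5 scaRNAs. Snord85, Snord90 and Snora19, with means of 3.45, 2.90 and 3.13, were not. Snord52, at 3.55, lay just above the limit and Snord85 just below it. Microarrays give no read counts, so precision here rests on the scatter of each gene between arrays and on having 3 and 4 arrays.

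Over the whole series the arrays formed 2 sets by the interquartile range of all 25349 log2 values. It was 2.40 for RRas2-deficient replicate 2, 2.37 for WT replicate 1 and 2.49 for WT replicate 2 (the narrower arrays) and 2.69 to 2.91 for the other 4 (the wider arrays), so both genotypes occur in each set. The labels name no batch. Rras2 averaged 6.91 ± 0.22 (SD, n = 3) in deficient cells and 7.90 ± 0.74 (SD, n = 4) in WT cells, with a limma adjusted p of 1.00 and a two-sided exact permutation p of 0.114 (smallest possible 0.0286). It was lower on every deficient than on every WT array, narrowly, at 7.12 or less against 7.128 or more. Of all tested genes 0.366% were lower without overlap. A limma model that also fitted the array set gave Rras2 a difference of -1.13 ± 0.20 (log2 ± SE). Its unadjusted p there was 7.7e-04, where 10.1% of all tested genes were under 0.05, and its adjusted p was 0.296. Germinal centre markers Bcl6, Fas, S1pr2 and Gcsam were well above the limit for dim genes on every array. Their mean was 8.25 on the deficient narrower array, 8.27 on each WT narrower array and 9.15 to 9.67 on the wider arrays. Markers of other B cells (Ccr7, Klf2, Fcer2a and Cr2) averaged 8.74 to 9.15 on the narrower and 7.80 to 8.29 on the wider arrays. Ccr7 (2.37, narrower minus wider) and Klf2 (1.23) carried this difference, whereas Fcer2a (0.12) overlapped and Cr2 (-0.32) ran the other way. T cell markers averaged 4.04 to 4.63 on the narrower and 3.76 to 4.03 on the wider arrays. The 4.63 was WT replicate 1, with 4.04 and 4.11 on the other narrower arrays. Cd3e and Cd8a were higher on every narrower array, whereas Cd3d, Cd3g and Cd4 overlapped. Of 4 plasma cell markers Irf4 was higher (1.01, narrower minus wider) and Xbp1 lower (-0.97) without overlap, and Sdc1 and Prdm1 overlapped. The part of these cells in the values below was not tested, and fewer cells of a type and less RNA per cell cannot be told apart.

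Guide RNA signal differed far more between arrays than between genotypes. The median C/D RNA lay 0.22 below its own mean over 7 arrays in RRas2-deficient replicate 1, 0.97 above it in replicate 2 and 1.60 below it in replicate 3 (values of -0.22, 0.97 and -1.60). In WT replicates 1 to 4 these medians were 0.40, 1.48, -0.38 and -0.62. The genotypes overlap, and both have arrays above and below the mean. H/ACA RNAs kept the same split, at -0.29, 0.81 and -1.16 in RRas2-deficient replicates 1 to 3 and 0.47, 1.36, -0.52 and -0.40 in WT replicates 1 to 4. ScaRNAs moved less, at -0.31, 0.46 and -0.84 in the deficient and 0.36, 0.58, -0.53 and -0.03 in the WT replicates. The median over all 16136 tested genes stayed between -0.04 and 0.01 on every array. RRas2-deficient replicate 3 gave the lowest value of 49 of the 65 tested members, and WT replicate 2 gave the highest of 44. How often these arrays were lowest or highest over all tested genes was not taken, so the counts only describe the members.

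**Figure D1:**
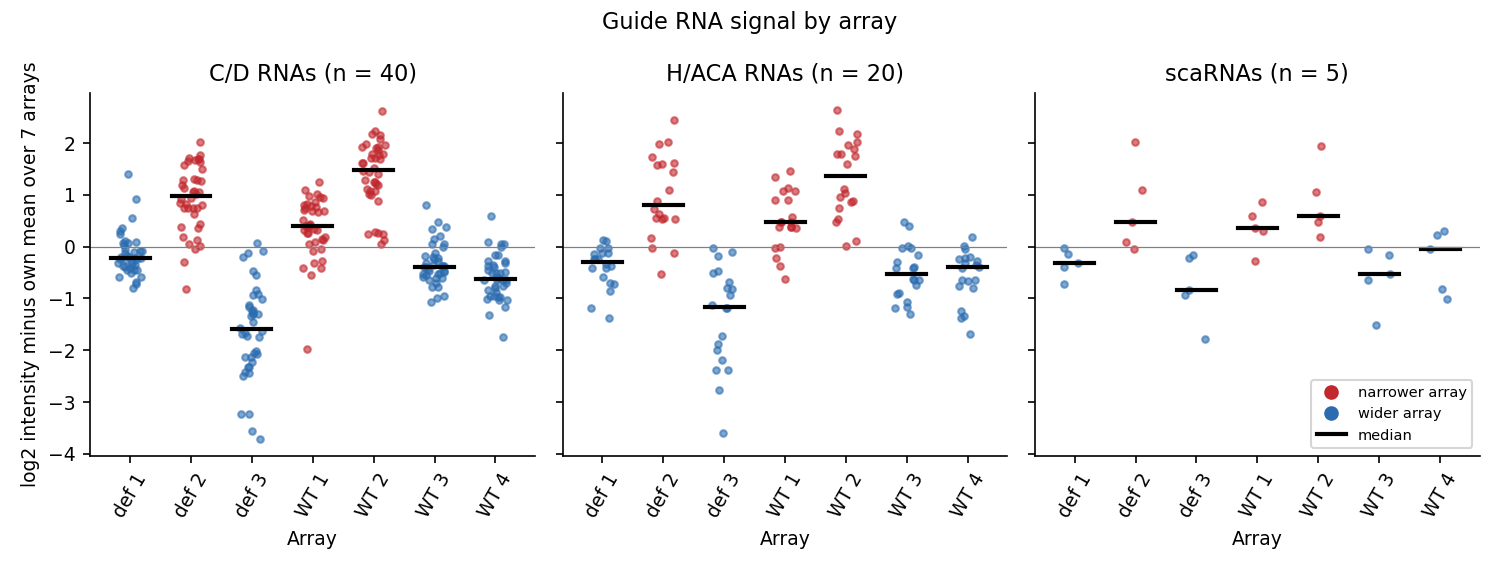
Each point is a tested guide RNA, plotted as its log2 intensity on an array minus its own mean over the 7 arrays (y axis) for 40 C/D RNAs, 20 H/ACA RNAs and 5 scaRNAs, with RRas2-deficient arrays (def) left of WT arrays and black bars for medians. The 3 narrower arrays (red) have medians above 0 in every class, the 4 wider arrays (blue) below 0, and RRas2-deficient replicate 3 is lowest.

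No guide RNA passed the test between genotypes. With an adjusted p of 0.05 as the limit, 0 of 65 members were called in limma, against a background of 0.0124% of all tested genes (2 of 16136), and the adjusted p of every member was 1.00. At an unadjusted p under 0.05 the count was 0 as well, with a background of 0.818% in either direction and 0.297% for lower values. In no member did all deficient arrays lie above or below all WT arrays; over all tested genes 0.719% were higher without overlap and 0.366% lower. Means in deficient cells were lower for 58 members (34 of 40 C/D, 19 of 20 H/ACA and 5 of 5 scaRNAs) and higher for 7, with a median log2 difference of -0.46. Over all tested genes 7796 were lower and 8340 higher, with a median of 0.00491. The members' moderated standard error had a median of 0.74, against 0.16 for all tested genes, and the 95% interval of each of the 65 included 0, with a median half-width of 1.76. Differences well beyond a doubling are thus inside the intervals of most members.

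The lower means changed when single arrays were left out. The share of narrower arrays was smaller among deficient than among WT arrays, and leaving out an array alters that balance. In the differences that follow, the part of a single array and that of the balance cannot be told apart. Without RRas2-deficient replicate 3 the median difference of the members was 0.14, with 42 higher and 23 lower. Without WT replicate 2 it was -0.02, with 32 higher and 33 lower. Without RRas2-deficient replicate 2 it was -1.001, with 2 higher and 63 lower, and without WT replicate 4 it was -0.70, with 6 higher and 59 lower. In RRas2-deficient replicate 3 the guide RNAs were a median of 0.83 lower than in the WT arrays of its own set (difference of -0.83), and 54 of 65 lay below both. RRas2-deficient replicate 1, in the same set, differed from those WT arrays by a median of 0.20, with 34 members above both and 7 below both. Over all tested genes the median of the same difference was 0 for replicate 3 and -0.013 for replicate 1. Among narrower arrays the deficient one lay between the WT arrays for 37 members, above both for 16, below both for 11 and level with one of them for 1. The share over all tested genes was not taken for these counts, so they only describe the members. The mean of 5 myeloid markers was 4.58 in RRas2-deficient replicate 3, 4.52 in replicate 2, where guide RNA signal was high, and 3.81 to 4.43 on the other arrays. Of the 5, Lyz2 and Csf1r were highest in replicate 3, and Itgam, Adgre1 and Cd14 (the last below the limit for dim genes) in replicate 2. Their part in the guide RNA values was not tested.

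With the array set as a block in the model, the median log2 difference was -0.21 for C/D RNAs, -0.12 for H/ACA RNAs and 0.01 for scaRNAs. Of 65 members 20 were higher and 45 lower, and 0 were called, against 0.0124% of all tested genes. Unadjusted p was under 0.05 for 2 members, Snord88c (0.39, limma adjusted p = 0.456) and Scarna10 (-0.44, limma adjusted p = 0.483), where the background in that model is 10.1% in either direction and 6.24% for lower values. With the interquartile range as a covariate the median over members was -0.54, and 3 members, all lower, had an unadjusted p under 0.05. The background in that model is 4.71% in either direction (760 of 16136), with 312 of 16136 lower.

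The 5 members of lowest p in each direction are described here, although none passed. Scarna10, a mixed-type guide of Cajal bodies (gene ID 100217413), read 9.82, 10.05 and 9.12 in RRas2-deficient replicates 1 to 3 and 10.32, 10.43, 9.80 and 10.18 in WT replicates 1 to 4. The groups overlap at WT replicate 3. Its difference was -0.52 ± 0.25 (log2 ± SE, limma adjusted p = 1.00), and -0.32 and -0.52 within the narrower and the wider set. Snord71, a C/D RNA that lies within Ap1g1 (a clathrin adaptor gene), read 6.83, 7.25 and 5.77 in the deficient and 7.45, 8.13, 6.85 and 7.15 in the WT replicates. RRas2-deficient replicate 3 lies more than 1 log2 unit below every WT array, and the difference was -0.78 ± 0.43. Snord111, within the splicing factor gene Sf3b3, read 6.95, 8.32 and 3.56 in the deficient and 8.24, 9.36, 7.16 and 7.33 in the WT replicates. Its difference of -1.75 ± 1.14 was the most negative among members, and 1 array, again replicate 3, was near the limit for dim genes. Without that array the difference was -0.39. Snord11, within Nop58, differed by -1.02 ± 0.66 and Snora41, within the elongation factor gene Eef1b2, by -0.30 ± 0.20.

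Snord13, which directs acetylation of small-subunit ribosomal RNA and has a promoter of its own in mammals (gene ID 100217422), had the most positive difference. It read 11.83, 10.55 and 10.50 in RRas2-deficient replicates 1 to 3 and 8.46, 10.71, 10.91 and 10.04 in WT replicates 1 to 4. WT replicate 1 was lowest and RRas2-deficient replicate 1 highest, and the other arrays overlap. The difference was 0.93 ± 0.65, with a limma adjusted p of 1.00, and it was 0.41 without WT replicate 1. Snord91a (0.26 ± 0.68), Snord88c (0.24 ± 0.36), Snord123 (0.16 ± 0.16) and Snord82 (0.08 ± 0.23) were the 4 others of lowest p with higher means. Snord91a overlapped widely, between 3.00 and 5.81 on deficient arrays and 3.53 and 5.11 on WT arrays.

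**Figure D2:**
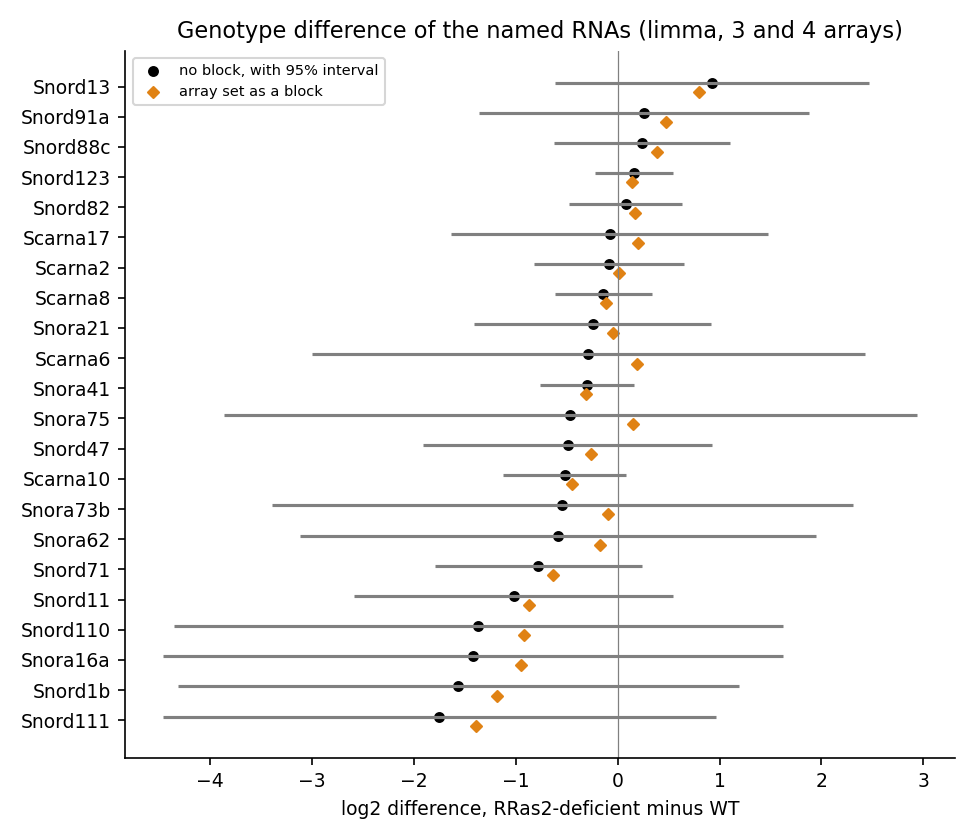
Log2 difference, RRas2-deficient minus WT (x axis), of 22 named guide RNAs (y axis), with black points and grey 95% intervals from the model without a block (3 and 4 arrays) and orange diamonds from the model with the array set as a block. Every interval includes 0, and Snord111 at -1.75 and Snord13 at 0.93 are the ends of the range.

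Snora73b, an H/ACA RNA known as U17 or E1, serves in cleavage of the ribosomal precursor. It read 9.49, 11.11 and 6.62 in the deficient and 10.46, 11.18, 8.76 and 8.06 in the WT replicates. The span within each genotype is several log2 units, and the difference was -0.54 ± 1.20. Of the 4 C/D RNAs within Rpl13a, which have been linked to lipotoxic stress in mouse and hamster cells, Snord35a was the only one with a probe set of its own here, at 8.81, 10.52 and 6.90 in the deficient and 10.10, 11.20, 8.95 and 8.83 in the WT replicates (-1.02 ± 0.94). Of the RNAs cut from Gas5, a growth-arrest transcript, Snord47 was the only such one, at 10.88, 11.75 and 9.54 in the deficient and 11.67, 12, 10.62 and 10.55 in the WT replicates (-0.49 ± 0.60). The C/D families of the imprinted Snurf and Dlk1 clusters were not analysed here.

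Among scaRNAs, Scarna2, a guide for the spliceosomal U2 RNA with its own promoter in mammals, read 10.42, 11.28 and 10.60 in the deficient and 11.12, 10.99, 10.16 and 11.12 in the WT replicates. The genotypes overlap, and the difference was -0.08 ± 0.31. Scarna17 differed by -0.08 ± 0.65. Its second probe set spanned the arrays alike, from 7.50 in RRas2-deficient replicate 3 to 10.20 in WT replicate 2. Scarna6, the longest member at 248 nucleotides, read 7.14, 9.88 and 6.09 in the deficient and 8.74, 9.82, 6.36 and 7.06 in the WT replicates (-0.29 ± 1.14). Scarna8 stayed between 3.84 and 4.70, near the limit for dim genes, and differed by -0.14 ± 0.20.

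The pattern shared by most members was the split of narrower from wider arrays. The sets were drawn from the spread of all probe sets and not from these RNAs, they are no groups of the study, and the values are given without a test. Guide RNAs were higher on the narrower arrays in 60 of 65 cases, with a median log2 difference (narrower minus wider) of 1.69, a 3.23-fold signal. It was 1.73 for C/D RNAs, 1.45 for H/ACA RNAs and 0.55 for scaRNAs, against 0.02 for all tested genes. In 47 of 65 members (72.3%) every narrower array exceeded every wider one, where the background is 13.6% of all tested genes, and in 0 the reverse held, where it is 26.9%. A difference above 1 was found in 46 members and in 0.787% of all tested genes, and one above 2 in 24 members and in 0.229% (37 genes). Of the 100 tested genes with the largest such difference, 43 were members.

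Snora75, an H/ACA RNA within the nucleolin gene Ncl (gene ID 100303740), ranked 1 among all tested genes. It read 10.39 on the deficient narrower array and 9.08 and 10.58 on the WT narrower arrays, and on the wider arrays 6.57 and 6.07 in deficient and 6.63 and 6.26 in WT cells. The sets lie more than 2 log2 units apart, and deficient and WT arrays of a set are mixed. The difference between sets was 3.63, and the genotype difference was -0.46 ± 1.43. Snora16a (2.96), Snord110 within Nop56 (2.86), Scarna6 (2.82), Snora73b (2.69), Snora62 within the ribosomal protein gene Rpsa (2.50), Snord1b within Snhg16 (2.47) and Snord111 (2.39) followed the same split. Snora21, within the ribosomal protein gene Rpl23, differed by 1.18. The genotype differences of Snord110 (-1.37 ± 1.26), Snora16a (-1.41 ± 1.28), Snord1b (-1.56 ± 1.16), Snora62 (-0.58 ± 1.06) and Snora21 (-0.24 ± 0.49) all had 95% intervals that include 0. Without RRas2-deficient replicate 3 the differences of Snora16a and Snord1b were -0.019 and -0.40.

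The 5 members that were not higher on the narrower arrays were Snord13 (-0.91), Snord37 within the elongation factor gene Eef2 (-0.57), Snord52 (-0.19), Snord123 (-0.13) and Snora41 (-0.02), of which Snord13 was the only one with a mean above 6 (10.4). They were named after their values were seen. Snora35, within the serotonin receptor gene Htr2c and known as a brain RNA, stayed at 4.64 on each deficient array and between 4.61 and 4.77 on WT arrays, and its difference between sets was 0.06. Dim members showed the split less: its median was 0.34 in the 14 tested members with a mean under 6 and 1.81 in the 51 others. Across the 65 tested members the difference between sets had a Pearson correlation of 0.38 with mean intensity and of 0.18 with RNA length, descriptions of members that share the same arrays. RNA lengths ran from 48 to 221 nucleotides for C/D, 56 to 205 for H/ACA and 61 to 248 for scaRNA genes in the RefSeq table.

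By position, 65 of the 68 members lie within the span of another gene in the RefSeq table and 3 (Snord13, Snord89 and Scarna2) do not; the table does not give exons or strand. Ribosomal protein genes enclose 18 members and long noncoding RNA genes alone enclose 11. The median difference between sets was 1.39 for the 18 tested members in ribosomal protein genes, 2.33 for the 11 in noncoding genes, 1.72 for the 33 in other protein genes and 0.55 for the 3 with no enclosing gene. Within each kind the range was wide, from 0.07 to 2.71 in ribosomal protein genes and from -0.19 to 2.96 in noncoding genes. Median genotype differences of these kinds were -0.43, -0.46, -0.46 and -0.08. The members lie on 19 chromosomes, 7 of them on that of Rras2.

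The enclosing genes did not share the split. In 47 pairs of a tested member and a tested enclosing gene (37 distinct genes), the enclosing genes were lower on the narrower arrays in 31 of 37 cases, with a median difference of -0.51 and a range from -1.51 to 0.24. Over all tested genes 7590 of 16136 were lower there. The guide RNAs of the same pairs had a median of 1.73, and the guide RNA had the larger value in 44 of 47 pairs. Across the pairs the Pearson correlation of the 2 differences was 0.14, a description in which pairs share arrays and some share a gene. Between genotypes 0 of the 37 enclosing genes were called, 24 were lower and 13 higher, with a median of -0.06.

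**Figure D3:**
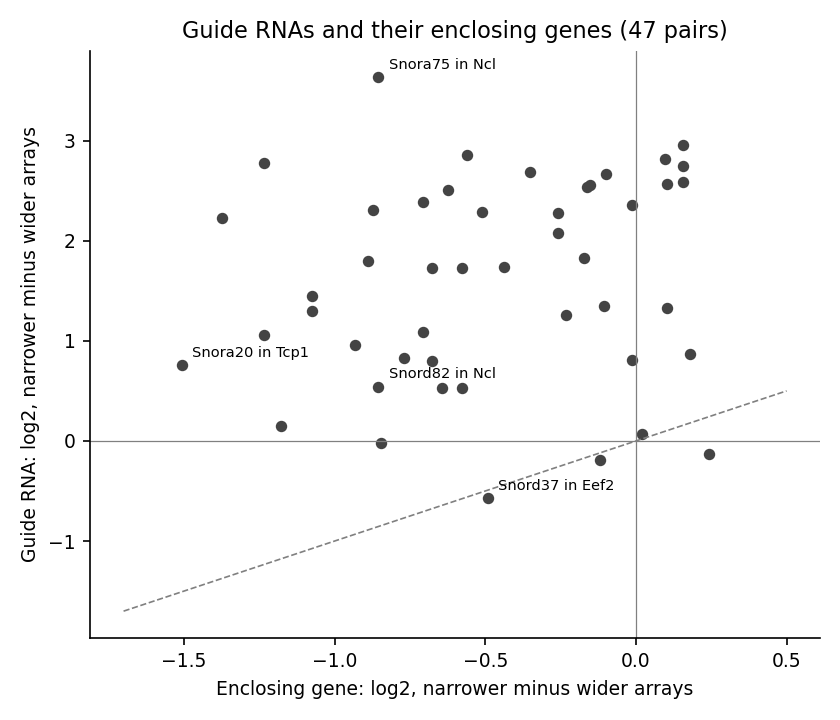
Each point is 1 of 47 pairs of a tested guide RNA and its tested enclosing gene, with the difference between narrower and wider arrays (log2) of the enclosing gene on the x axis and of the guide RNA on the y axis, and a dashed line of equal values. In 44 pairs the point lies above the dashed line, and Snora75 in Ncl is highest at 3.63.

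RNAs enclosed by the same gene did not move by the same amount. In 9 genes that enclose more than 1 tested member, the difference between sets varied within the gene by 0.15 to 3.09, with a median of 1.20. Mean intensity differed within these genes as well, and its part was not tested. The dimmer RNA had the smaller difference in Kansl2, Wdr43, Rpl3, Nop58, Rps3a1 and 2410002F23Rik. In Ncl and 2410006H16Rik the brighter one had it, and Snhg12 was mixed. Snora75 and Snord82 both lie within Ncl. Snord82 read 12.10, 12.56 and 12.08 in the deficient and 12.53, 12.45, 11.76 and 11.93 in the WT replicates, and its difference between sets was 0.54. Its mean was 12.2, where the highest value of an array was 13.25 to 13.38. Ncl itself ran the other way (-0.85). Within Nop58, which encodes a core protein of C/D particles, Snord70 differed by 2.77 and Snord11 by 1.06, against -1.23 for Nop58. The 3 H/ACA RNAs within Snhg12, Snora16a, Snora44 and Snora61, were alike at 2.96, 2.58 and 2.75, against 0.16 for Snhg12.

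The sequences around the annotated starts of these 3 genes are shown because each start serves RNAs whose signals diverged or kept together. They cover 40 bases before and 20 after the start, on the strand of the gene, from RefSeq on build GRCm38.p6, and capitals mark a run of 7 or more letters that are each C or T, as in the pyrimidine tract at which many ribosomal protein messages begin. Ncl lies at chr1:86359436-86359495 (minus strand), Nop58 at chr1:59684966-59685025 (plus strand) and Snhg12 at chr4:132308638-132308697 (plus strand).
Ncl: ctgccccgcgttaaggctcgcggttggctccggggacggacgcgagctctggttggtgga
Nop58: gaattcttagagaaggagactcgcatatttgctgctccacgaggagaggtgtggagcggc
Snhg12: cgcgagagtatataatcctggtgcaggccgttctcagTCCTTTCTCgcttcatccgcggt
Such a run within 20 bases of the start was present in Snhg12 and in neither Ncl nor Nop58. It was found in 9 of 36 measured enclosing genes with an entry (25%) and in 27.5% of all 27025 genes of the table, and on the opposite strand in 16.7% and 29.7%. The share among enclosing genes is near that of all genes.

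**Figure D4:**
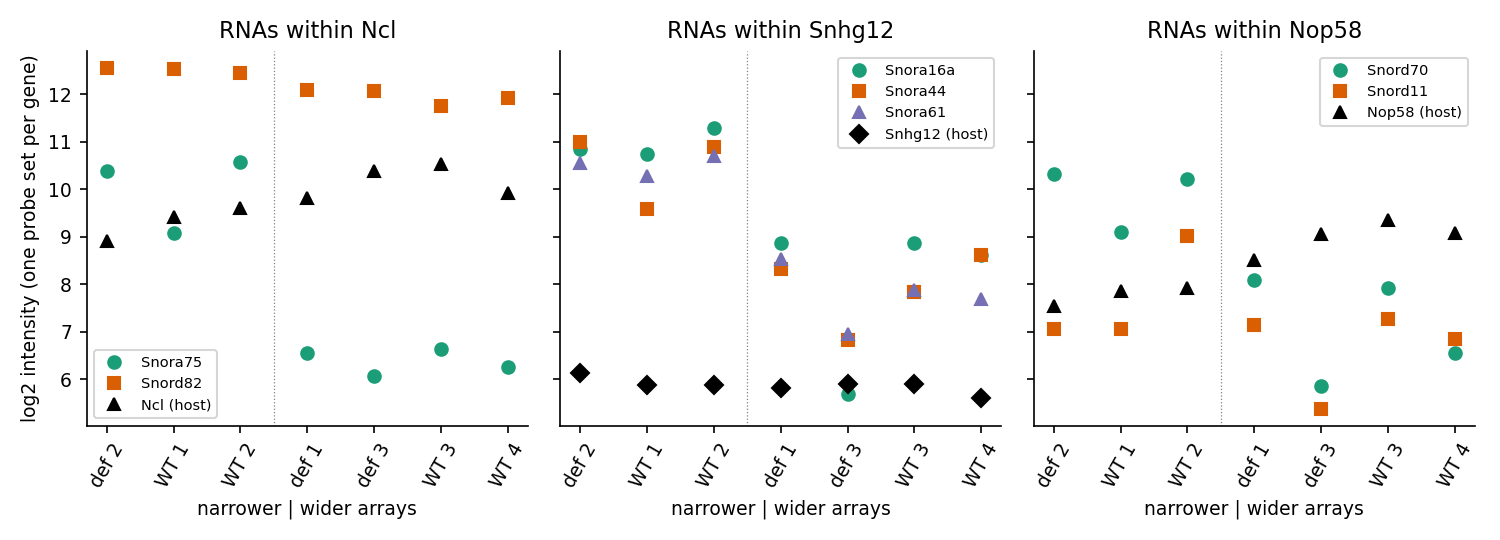
Log2 intensity (y axis) of guide RNAs and of the gene that encloses them (black) on each array (x axis), for Ncl, Snhg12 and Nop58, with the 3 narrower arrays left of the dotted line and the 4 wider arrays right of it, and def for RRas2-deficient. Snora75 is above 9 on each narrower array and below 7 on each wider one, while Snord82 stays near 12 and Ncl is higher on the wider arrays.

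The protein partners of the guide RNAs showed the opposite split and no called change with genotype. The C/D core genes Nop56 and Nop58 both had lower means in deficient cells (-0.22 ± 0.25 and -0.18 ± 0.51), as did the H/ACA core genes Dkc1, for dyskerin (-0.44 ± 0.65), Nop10 (-0.30 ± 0.33), Nhp2 (-0.04 ± 0.22) and Gar1 (-0.01 ± 0.20). Fbl and Snu13 were not analysed here. None of these 6 passed, with a limma adjusted p of 1.00 for each. In the model that blocks on array set, the 6 again had lower means in deficient cells, at -0.32 for Nop56, -0.40 for Nop58, -0.72 for Dkc1, -0.43 for Nop10, -0.13 for Nhp2 and -0.09 for Gar1. The first 4 of these had an unadjusted p under 0.05, where the background in that model is 10.1%, and 0 passed after adjustment (lowest limma adjusted p = 0.309). On narrower arrays all 6 were lower without overlap of the sets, Dkc1 by -1.55 and Gar1 by -0.44. Of all 16136 tested genes, 4344 (26.9%) were lower there without overlap, and 7590 were lower with or without overlap. So were all 3 B cell markers (Cd79a, Cd79b and Ms4a1) and all 4 germinal centre markers. The 5 T cell and 4 tested myeloid markers were higher, as were 3 of 4 plasma cell markers and 3 of 4 markers of other B cells. Of 12 assembly factor genes, such as Nufip1, Ruvbl1 and Ruvbl2 of the chaperone complexes that build the particles, 8 were higher and 4 lower in deficient cells and 0 were called. With the array set as a block this turned to 3 higher and 9 lower, again with 0 called, and all 12 were lower on narrower arrays (median -0.47). Of 6 genes of Cajal bodies, including Coil, Wrap53 and Smn1, 3 were higher and 3 lower, 0 were called, and 5 were lower on narrower arrays. Of 14 tested Snhg genes 5 were higher and 9 lower with genotype (7 and 7 with the array set as a block), and 0 were called in either model. In the model with the block, 6 of the 14, in both directions, had an unadjusted p under 0.05. So had 2 of the 6 Cajal body genes and 1 of the 12 assembly factor genes, with the same background of 10.1%. Snhg15 was lower on every deficient than on every WT array (-0.39 ± 0.11), where the background is 0.366% of all tested genes. On narrower arrays 10 Snhg genes were higher, with a median of 0.18. Snhg17 differed most, by 2.00 without overlap of the sets, and Snhg6 had the most negative value (-0.89).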

How the data were processed

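Total RNA of sorted cells was hybridised to 1 microarray per sample. The authors deposited log2 intensities per probe set; per the submitters' processing notes these were made with RMA, a method that corrects background, normalizes by quantiles and summarises probes, and oligo, whose versions and build are not given in the sources used here. The total RNA was extracted with Trizol, per the labels' protocols.

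Of 25349 probe sets 22225 had 1 gene symbol, and the brightest of several was kept (640 of 21515 genes). The 4 probe sets that name a member beside another gene were left out. Genes with a mean of at least 3.48 (25th percentile) were tested, 16136 in all, with limma 3.58.1 in R 4.3.3 (RRas2-deficient minus WT, two-sided, Benjamini-Hochberg over all of them, limit 0.05). Every p and SE of a gene is limma's, and intervals are 95% moderated t intervals. The labels name no animals, so a p-value reflects only how far these samples scatter. Sets of arrays were split where neighbouring interquartile ranges lay furthest apart (0.197, at 2.59). Enclosing genes were found by span in a RefSeq table (GRCm38.p6). The test was checked on simulated data.

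The members, lists and alternatives were chosen with earlier results of these data known. Named are Rras2 and members of lowest p (5 each way), brightest (2 per class), widest over arrays (3 per class), processing RNAs, all scaRNAs, core proteins and Gas5 RNAs.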

Additional observations from a re-analysis of the deposited data

Results flagged for a closer look

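Among 26 results checked for a WT array far from the other 3, 2 were found, and chance gives about 1 in 20. Scarna2 was low in WT replicate 3, at 10.16 against 10.99 to 11.12 on the other WT arrays, with a gap of 0.862 of the range. Snora41 was high in WT replicate 1, at 4.91, against 4.44 on each of the other 3 WT arrays, whose values are equal, so the gap is 1 time the range. Groups of 3 arrays were not checked.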

How the results depend on the processing

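Over all genes 2 passed the adjusted limit, 1 with arrays centred on medians, 0 with the replicate number as a block (replicate block) and 0 to 2 without 1 array. No guide RNA passed under any of the alternatives run. Deviations of same-numbered arrays correlated at -0.59, 0.78 and 0.66. Arrays of the same set all correlated positively and arrays of different sets negatively, and the arrays numbered 1 are in different sets. These correlations therefore cannot show whether the replicate numbers pair the arrays. With the replicate block, which also drops WT replicate 4, the median differences were -0.74 (C/D), -0.71 (H/ACA) and -0.42 (scaRNA). In it 27 of 65 members (41.5%), all lower, had an unadjusted p under 0.05, against 1.09% of all tested genes (0.62% lower), and 0 an adjusted one. Of the arrays kept there, WT replicates 1 and 2 but only RRas2-deficient replicate 2 are narrower. Genotype and array set are therefore unbalanced in that model, and these values cannot be read as a difference of genotype alone. The class medians ranged from -1.07 to 0.16, -0.95 to 0.10 and -0.65 to 0.04 without 1 array. With the array set as a block and without RRas2-deficient replicate 3, chosen after seeing the data, they were 0.16, 0.10 and 0.00092. Signs turned with the array set as a block for Scarna17 (0.20), Scarna2 (0.009987), Scarna6 (0.19) and Snora75 (0.15), and with the replicate block for Scarna2 (0.0099). Without 1 array they turned for 13 of 22 named members, with ranges of -0.65 to 0.36 (Scarna17), -0.34 to 0.0892 (Scarna2), -1.38 to 0.52 (Scarna6), -0.25 to 0.037 (Scarna8), -0.58 to 0.0881 (Snora21), -1.56 to 0.44 (Snora62), -1.56 to 0.68 (Snora73b), -1.82 to 0.35 (Snora75), -2.59 to 0.0233 (Snord110), -1.001 to 0.10 (Snord47), -0.0752 to 0.20 (Snord82), -0.16 to 0.54 (Snord88c) and -0.46 to 0.94 (Snord91a). The other 9 kept their sign but moved by over 1.5 times, with ranges of -2.61 to -0.019 (Snora16a), -2.38 to -0.40 (Snord1b), -2.77 to -0.39 (Snord111), -1.33 to -0.44 (Snord11), -1.10 to -0.35 (Snord71), -0.71 to -0.25 (Scarna10), -0.45 to -0.12 (Snora41), 0.049 to 0.25 (Snord123) and 0.41 to 1.22 (Snord13). The cause was not tested beyond the arrays named in the report. Of 348 comparisons of a named member with an alternative, 319 kept the sign and the side of the limit. Dim probe sets limit what differences of low members can show.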

Other observations

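The 4 probe sets that name a guide RNA beside a second gene showed mixed patterns. Snord14e with Hspa8 read 10.45, 11.88 and 9.16 in RRas2-deficient replicates 1 to 3 and 11.14, 11.73, 9.86 and 9.73 in WT replicates 1 to 4, with a difference between narrower and wider arrays of 1.78. Snord1c with Snord1b and Snord14a with Rps13 differed by 1.87 and 1.23 in the same way. Snord4a with Tlcd1 differed by -0.78.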
